A study of Mus musculus with 3 samples.

Results

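Small nucleolar RNAs, or snoRNAs, were examined in mouse retina on 3 Affymetrix whole-transcript arrays. The members were all genes whose symbol begins with Snord or Snora and that had a probe set annotated with exactly 1 gene symbol, which gave 73 of the 22180 genes measured. Of these, 47 were Snord genes, of the box C/D class, and 26 were Snora genes, of the H/ACA class. A further 43 probe sets listed a snoRNA among several symbols, 16 of them the Snord116l copies, and were not used here. The symbol rule also passes over Rnu3a, a gene of the box C/D snoRNA U3.

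All 3 arrays used C57 mice that had received an injection into the vitreous of the eye, and each held RNA pooled from 5 to 6 retinae. The control received AP, which the labels do not spell out, and its retinae were taken 2 hr later. Cavtratin, a peptide made of a membrane-crossing leader and the scaffolding region of the caveolar coat protein caveolin-1, was also followed for 2 hr. Cav1-shRNA, a short hairpin RNA named for the caveolin-1 transcript, was followed for 2 days, so the agent and the time cannot be told apart in its comparison with AP control. The labels name neither the age and sex of the mice nor a vehicle or control hairpin.

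snoRNAs are short noncoding RNAs of the nucleolus, where ribosomal RNA is made. Box C/D snoRNAs guide the methylation of ribose in ribosomal RNA and H/ACA snoRNAs guide the change of uridine to pseudouridine, each by pairing with the target. Most mammalian snoRNAs are cut from introns of host genes, many of which encode ribosomal proteins or other factors of protein synthesis. A few are needed for cleavage of the ribosomal RNA precursor instead.

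No snoRNA gene was 2-fold apart between any of the arrays. Few genes were: with the floor reached, 1.36% were at least 2-fold higher and 0.0958% lower in cavtratin than in AP control. In Cav1-shRNA the shares were 0.341% and 0.122% against AP control, and 0.0349% and 0.785% against cavtratin. A count of 0 among the members is therefore near these shares. The widest spread over the 3 arrays was that of Snora75, at 0.48 on the log2 scale. Exactly the same value in all 3 was found in 20 of the 73 genes, or 27.4%, beside 50.1% of all genes. More snoRNA genes were higher than lower in cavtratin and in Cav1-shRNA against AP control, although every such difference was under 0.5. In cavtratin 47.9% were higher and 15.1% lower, beside 17.5% and 20.9% of all genes. In Cav1-shRNA 39.7% were higher and 24.7% lower, beside 22.4% and 18.5% of all genes. Both comparisons use the same AP control array. Between Cav1-shRNA and cavtratin 20.5% of members were higher in Cav1-shRNA and 35.6% lower, beside 22.3% and 16.8% of all genes. With 1 array per group no test was possible, and each difference compares 2 arrays and not the conditions.

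The array-wide facts that bear on these values were few. Cav1, the target of the hairpin, had a value of 8.26 in all 3 arrays, so the array labelled Cav1-shRNA showed no lower Cav1 value. Retina was well represented, with 16 of 17 measured retinal markers at or above the expression floor, set at 6.50. Of these 17, 1 was higher and 13 lower in cavtratin than in AP control, with a median difference of -0.08, and 6 were higher and 9 lower in Cav1-shRNA. Of 7 markers of retinal pigment epithelium 4 were higher and 1 lower in cavtratin, and 2 and 2 in Cav1-shRNA. Exactly equal values in all 3 arrays were found in 50.1% of all genes and in 27.4% of snoRNA genes. Why so many values are identical is not known, so an equal value, that of Cav1 included, does not show that the RNA level was the same. Among all genes 17.5% were higher and 20.9% lower in cavtratin than in AP control, and 22.4% and 18.5% in Cav1-shRNA. Of 13 neutrophil and monocyte markers 11 were higher and 1 lower in cavtratin, and 10 and 1 in Cav1-shRNA. Their list medians were 5.77 (AP control), 6.10 (Cav1-shRNA) and 7.02 (cavtratin), and only 5 of the 13 reached the floor by their mean. The 1 lower in cavtratin was Ly6c2, at -0.43, which was higher by 1.49 in Cav1-shRNA. Of 14 microglia and macrophage markers 10 were higher and 1 lower in cavtratin, and 13 higher and 0 lower in Cav1-shRNA. Their medians were 7.20, 7.74 and 7.90 in the same order. Of 11 lens markers 9 were higher and 1 lower in cavtratin, and 3 and 5 in Cav1-shRNA, with medians of 6.80, 6.76 and 7.65. Those higher in cavtratin were crystallin genes and Bfsp1 and Bfsp2, both with means below the floor. Mip was at -0.06 and Lim2 was equal. The part of these cell types in the snoRNA differences was not tested, and in pooled tissue fewer cells of a type and less RNA per cell cannot be told apart.

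Start regions of 3 host genes are shown because they hold 9 of the snoRNAs described below. Each runs from 60 bases before the annotated start to 20 bases from it, on the strand of the gene. Capitals mark the longest unbroken run of C or T within 15 bases on either side of the start. Where runs tie, the earliest is marked. The sequences are those of RefSeq for build GRCm38.p6, at chr1:86359436-86359515 on the minus strand for Ncl, at chr4:132308618-132308697 on the plus strand for Snhg12 and at chr11:62602817-62602896 on the plus strand for 2410006H16Rik.
Ncl: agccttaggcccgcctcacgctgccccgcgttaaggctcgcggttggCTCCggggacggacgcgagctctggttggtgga
Snhg12: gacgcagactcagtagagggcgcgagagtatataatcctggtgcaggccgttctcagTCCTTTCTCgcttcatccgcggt
2410006H16Rik: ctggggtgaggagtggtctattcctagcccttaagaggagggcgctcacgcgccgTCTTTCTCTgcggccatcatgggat
Both noncoding hosts carried a run of 9 C or T bases across the start. The longest run of Ncl had 4 bases, and the marked one lay before the start. Another run of 4 bases, ctct, lay after the start and is not marked. A run of C or T at the start is a known feature of transcripts of the translation machinery. Annotated starts, 43 in number, were found for 40 of the 50 genes that alone span a member, and some genes had several. Read on the strand of the gene only, runs of at least 8 bases were found in 10 of these 43 starts, or 23.3%. Of all 32851 starts in the table, read alike, 12.0% had such a run. This describes the letters in that window and nothing about regulation.

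Of the 73 snoRNAs, 64 lay within the span of exactly 1 other RefSeq gene, 6 within several and 3, Snord13, Snord89 and Snord118, within none. The gene table gives no strand, so a spanning gene is called the host by position alone. Ribosomal protein genes held 18 members and long noncoding RNA genes 15. Genes of nucleolar proteins held 10, among them Nop56 and Nop58, which encode core proteins of the box C/D particle itself. Genes of translation factors or chaperonins held 8, and other protein-coding genes 13. Since most members lie within another transcript, the values of a snoRNA and of unspliced host RNA cannot be told apart. The labels do not say whether small RNA was kept or lost in labelling.

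**Figure D1:**
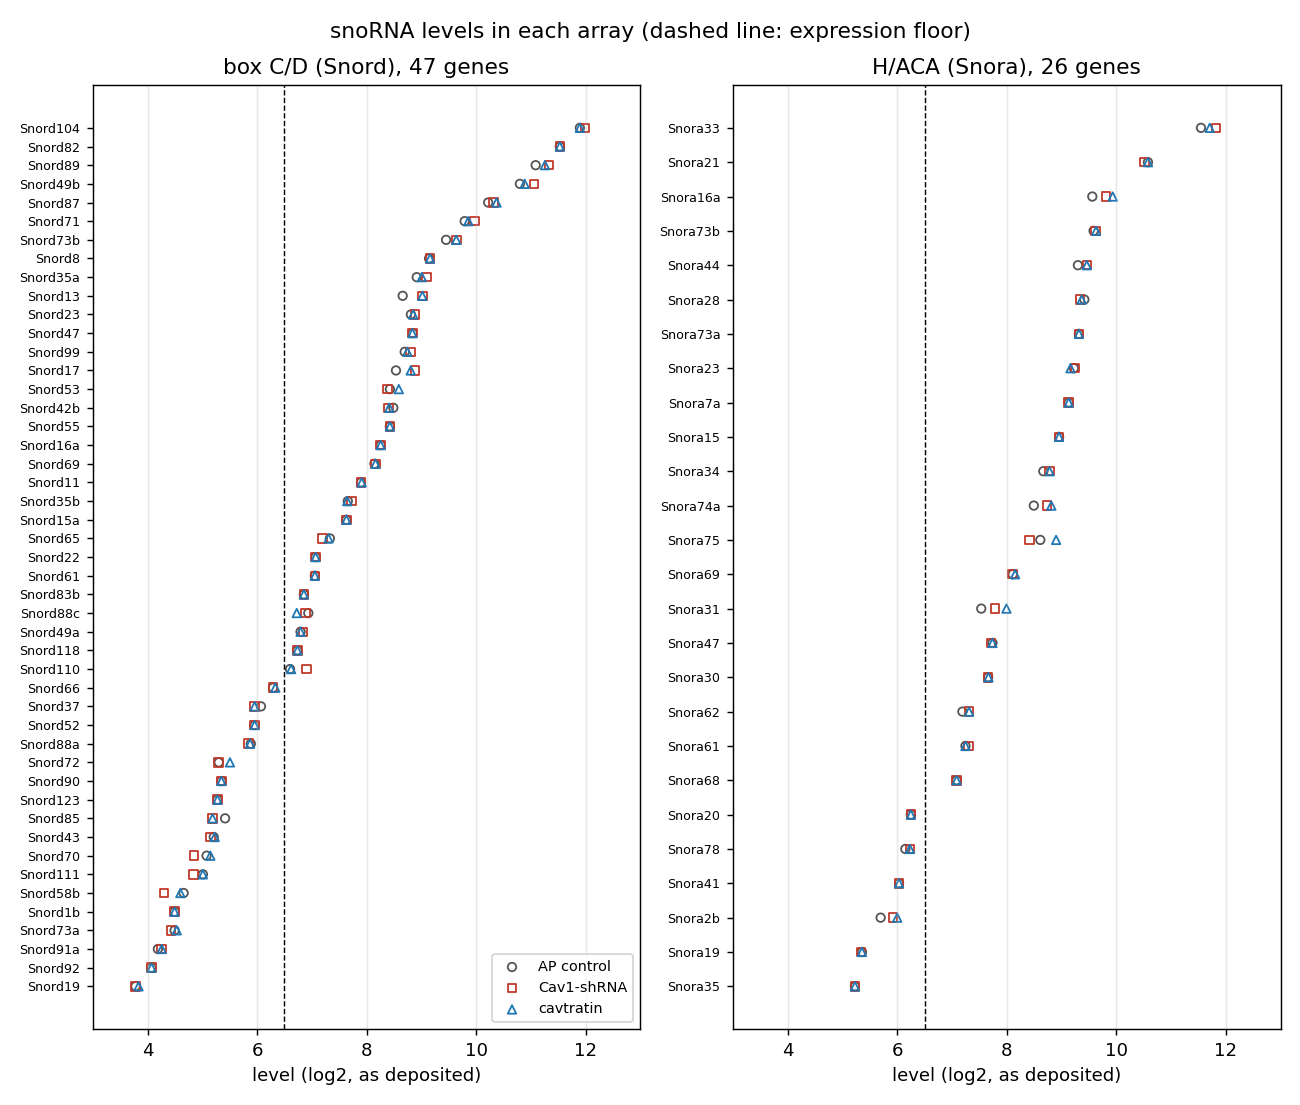
Deposited log2 level of each snoRNA gene (horizontal axis), with box C/D genes on the left and H/ACA genes on the right, sorted for display. The dashed line is the expression floor of 6.50, and for most genes the 3 symbols overlap.

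The floor was reached by the mean of 50 members, 30 box C/D and 20 H/ACA genes. The other 17 box C/D and 6 H/ACA genes lay below it and are included in the counts over all members unless stated. Levels of different probe sets are not set against each other, and each sentence below follows 1 gene across the arrays. Where 3 values follow each other unlabelled, the order is AP control first, then Cav1-shRNA, then cavtratin.

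Members known for a part in processing of the ribosomal RNA precursor were picked out after their values were seen. Snord118, the U8 snoRNA, which is needed to process the large-subunit RNAs and is made from its own promoter, was at 6.74 in all 3 arrays. Snord22, within Snhg1 and linked to the processing of small-subunit RNA, was at 7.07 in all 3. Snora73a, a copy of the H/ACA snoRNA U17, which acts in small-subunit processing, was at 9.32 in all 3. The other copy, Snora73b, was at 9.59 under AP, 9.62 under the hairpin and 9.63 under cavtratin. Both copies lie in Snhg3, which was at 7.28 in all 3 arrays, and whether their probe sets cross-hybridise was not tested. Rnu3a, the U3 gene outside the rule, was below the floor, at 4.90 in AP control against 5.04 in the other 2.

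Cavtratin was compared with AP control, both at 2 hr. Of the 73 members 35 were higher in cavtratin, 27 exactly equal and 11 lower, while 17.5% of all genes were higher and 20.9% lower. No member was at least 2-fold higher or lower with the floor reached, against 1.36% and 0.0958% of genes with the floor reached. In box C/D genes 22 of 47 were higher and 9 lower, with a median difference of 0. In H/ACA genes 13 of 26 were higher and 2 lower, with a median of 0.0026, and the median of all genes was 0. Over H/ACA members with the floor reached the median was 0.024, and the mean over all 26 was 0.091.

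A count of differences of at least 0.1, a size chosen after the values were seen, gave 16 members higher and 3 lower in cavtratin, where 7.68% and 6.65% of all genes passed. The H/ACA class held 9 of the 16 and none of the 3. At a difference of at least 0.2, 8 members were higher and 2 lower, where 4.13% and 2.37% of all genes passed. Among the 50 members that reached the floor by their mean, 14 were at least 0.1 higher and 1 lower, where 8.4% and 6.15% of genes with the floor reached passed, and 26 were higher by any amount, where 19.6% were. The larger differences were mostly upward, and each rests on 1 array a side.

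Snora31, within Tpt1, which encodes a translationally controlled growth protein, was at 7.53 under AP, 7.79 under the hairpin and 7.99 under cavtratin. Its difference of 0.46 between cavtratin and AP control was the largest of any member in that comparison. Snora16a, within the noncoding Snhg12, was at 9.56 under AP, 9.82 under the hairpin and 9.94 under cavtratin, a difference of 0.37 for cavtratin. Snora74a, which lies in Snhg4, was at 8.49, 8.74 and 8.81 in turn, a difference of 0.32. Snora75, described further on, was higher by 0.29. In Snora31, Snora16a and Snora74a, named for this difference, the Cav1-shRNA value lay between the others. In Snora75, named by the same rule, the Cav1-shRNA value was the lowest. Snora2b, within Kansl2, a subunit gene of a histone acetyltransferase complex, had the order of Snora31 below the floor, at 5.70, 5.93 and 6.00. From lowest to highest, the order AP control, Cav1-shRNA, cavtratin was found in 6 members, or 8.2%, and in 3.75% of all genes. The order AP control, cavtratin, Cav1-shRNA was found in 9 members, or 12.3%, and in 3.2% of all genes.

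Snord13, the U13 snoRNA, which guides acetylation of small-subunit RNA and has its own promoter, read 8.66 in AP control against 9.02 in the other 2. Its difference of 0.36 was the largest among box C/D genes in both comparisons with AP control. Snord17, within the sorting nexin gene Snx5, was at 8.54 under AP, 8.89 under the hairpin and 8.81 under cavtratin. Snord73b, within the ribosomal protein gene Rps3a1, was at 9.45 in AP control and 9.64 in both others, and Snord89 was at 11.09, 11.33 and 11.26. These genes were named for their difference from AP control, which fixes the order of those 2 arrays.

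Lower values in cavtratin were fewer. Snord88c, in the uncharacterised gene 2410002F23Rik, was at 6.94 under AP, 6.89 under the hairpin and 6.73 under cavtratin, a difference of -0.21. Snord42b, in the ribosomal protein gene Rpl23a, was lower by 0.07, Snord65 by 0.02 and Snord35b by 0.01. In the H/ACA class the negative differences were -0.06 for Snora23, in the nuclear import gene Ipo7, and -0.05 for Snora28, in the translation initiation factor gene Eif5. Below the floor, Snord85 and Snord37 were at -0.23 and -0.12.

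**Figure D2:**
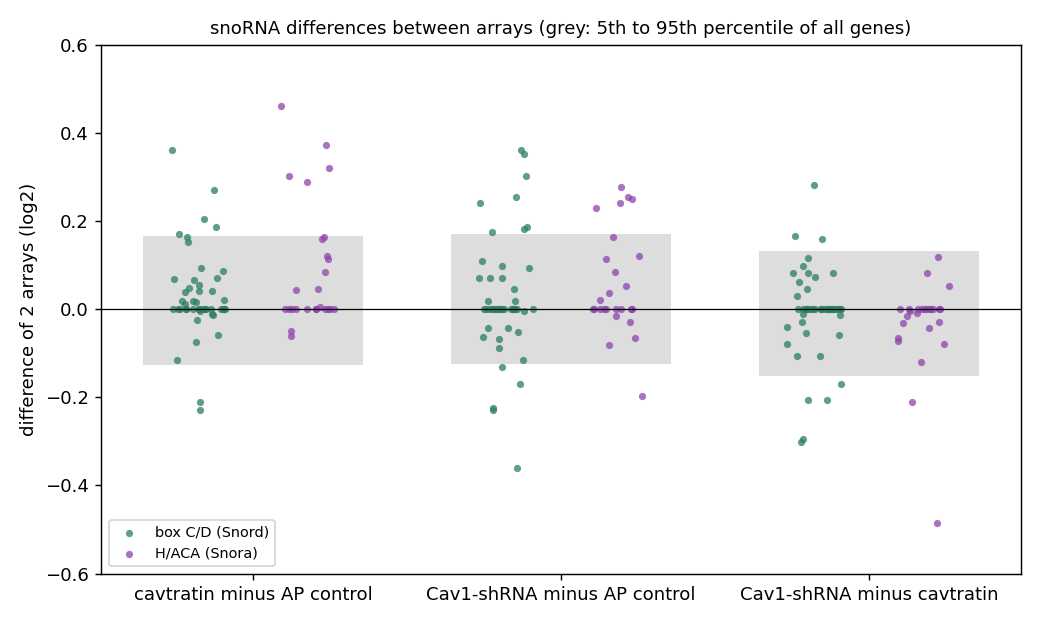
Difference of 2 arrays on the log2 scale for each snoRNA gene, by comparison and class, 1 point per gene, with a grey band from the 5th to the 95th percentile of all genes. Every point lies within 0.5 of 0, and the lowest is Snora75 in Cav1-shRNA minus cavtratin, at -0.48.

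Cav1-shRNA, at 2 days, was compared with AP control, at 2 hr. Of the 73 members 29 were higher in Cav1-shRNA, 26 equal and 18 lower, and 22.4% of all genes were higher and 18.5% lower. No member was at least 2-fold higher or lower with the floor reached, against 0.341% and 0.122% of genes with the floor reached. The median difference was 0 in both classes, with 17 of 47 box C/D genes higher and 13 lower, and 12 of 26 H/ACA genes higher and 5 lower. At 0.1 or more, 17 members were higher and 7 lower, where 8.71% and 6.31% of all genes passed, and at 0.2 or more 10 were higher and 3 lower, where 4.04% and 2.66% passed. With the floor reached, 16 of 50 were at least 0.1 higher and 2 lower, where 8.25% and 5.71% of genes passed. This comparison uses the AP control array again, so its values are not independent of those for cavtratin.

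Beside Snord13 at 0.36 and Snord17 at 0.35, the box C/D genes with the largest differences were Snord110 and Snord49b. Snord110, within Nop56, was at 6.60 under AP, 6.90 under the hairpin and 6.62 under cavtratin, so the Cav1-shRNA array alone was high. Snord49b, in the noncoding 2410006H16Rik, was at 10.80, 11.06 and 10.89. Among H/ACA genes Snora33, within the ribosomal protein gene Rps12, was at 11.55 under AP, 11.83 under the hairpin and 11.71 under cavtratin. Snora33 had a second probe set that read 5.70 in all 3 arrays. Snora16a, Snora31 and Snora74a were higher in Cav1-shRNA by 0.25, 0.25 and 0.24.

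On the lower side the H/ACA gene Snora75 was at -0.20, followed by Snora28 at -0.08, Snora21, in Rpl23, at -0.06 and Snora47 at -0.03. Among box C/D genes at or above the floor Snord65 was at -0.13, Snord42b at -0.09, Snord88c at -0.05 and Snord53 at -0.04. Larger negative differences lay below the floor, in Snord58b at -0.36, Snord85 at -0.23, Snord70 at -0.22 and Snord111 at -0.17. Background on these arrays was not measured here, and values below the floor are given as a description.

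The array labelled Cav1-shRNA was set against cavtratin directly, without the AP control array. As deposited, 15 members were higher in Cav1-shRNA, 32 equal and 26 lower, where 22.3% of all genes were higher and 16.8% lower. In the H/ACA class 3 of 26 were higher and 12 lower, and in the box C/D class 12 of 47 were higher and 14 lower, with medians of 0 in both. At 0.1 or more 5 members were higher and 10 lower, where 7.17% and 7.02% of all genes passed. No member was at least 2-fold higher or lower, against 0.0349% and 0.785% of genes with the floor reached. At 0.2 or more 1 was higher and 6 lower, where 2.4% and 3.73% of all genes passed. With the floor reached, 5 of 50 were at least 0.1 higher and 5 lower, where 6.07% and 7.44% passed, so the lower count came in part from genes below the floor. Centring each array on its median gave 57 members higher and 16 lower, but it moved the median of all genes to 0.051 and made 89.5% of all genes higher. Quantile normalization gave 53 and 20, with a median of 0.026 and 82.6% of all genes higher. Relative to the median of all genes, 15 members were above and 26 below as deposited and after centring. Of all genes 22.3% were above and 16.8% below. After quantile normalization 32 members were above and 41 below, where 50.0% of all genes lay on each side. With a trend on level subtracted 28 were above and 45 below, where 49.9% and 49.8% of all genes were.

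Snora75 carried the widest difference of the whole set. It lies within Ncl, the gene of the abundant nucleolar protein nucleolin, and was at 8.61 under AP, 8.42 under the hairpin and 8.90 under cavtratin. The AP control value lay between the other two, and the difference between Cav1-shRNA and cavtratin was -0.48. Snord82, in the same host, was at 11.53 in all 3 arrays, and Ncl itself was at 10.21, 10.22 and 10.22. Among other H/ACA genes Snora31 was at -0.21, Snora16a at -0.12 and Snora74a at -0.08, with Snora33 at 0.12, Snora23 at 0.08 and Snora61 at 0.05 on the higher side.

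Among box C/D genes Snord53, within Wdr43, a gene of the complex that assembles the small subunit, was at 8.43 under AP, 8.38 under the hairpin and 8.59 under cavtratin, a difference of -0.21. Snord65 was at -0.11, Snord87 at -0.06 and Snord42b at -0.01. On the higher side were Snord110 at 0.28, Snord49b at 0.17, Snord88c at 0.16 and Snord71, spanned by the adaptor protein gene Ap1g1 and a noncoding gene, at 0.12. Snord104 read 11.99 in Cav1-shRNA against 11.90 in the other 2, and Snord87 was at 10.22, 10.32 and 10.38.

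**Figure D3:**
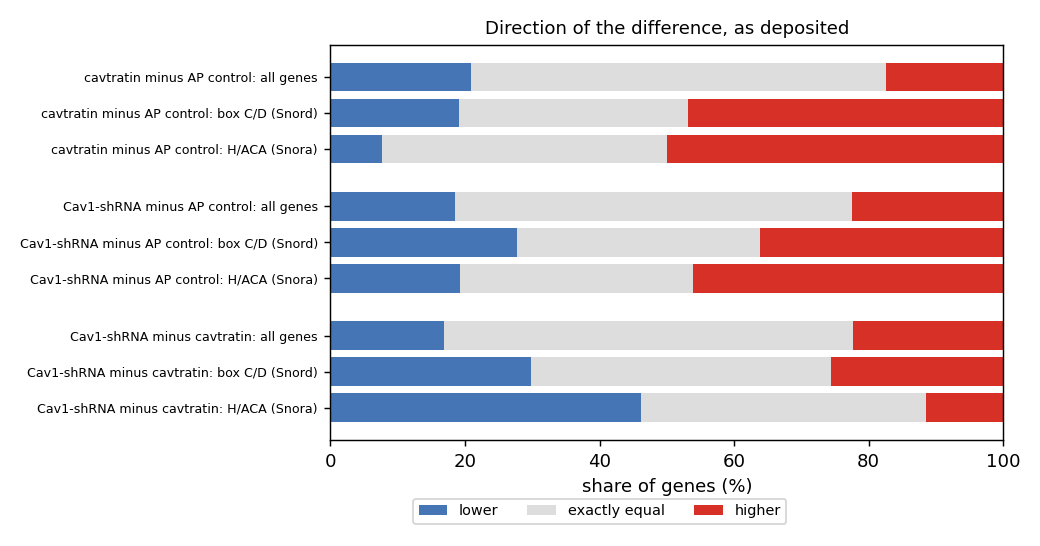
Share of genes (%) that were lower, exactly equal or higher in each comparison, as deposited, for all genes and for each snoRNA class. Higher values made up 50.0% of H/ACA genes and 17.5% of all genes in cavtratin minus AP control.

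Counts of higher and lower members under other scalings have to be read beside those of all genes, which the scalings move too. In cavtratin against AP control 63 members were higher and 10 lower after centring, or 86.3% higher against 80.2% of all genes. After quantile normalization 46 were higher and 27 lower, 63.0% against 49.3% of all genes, and after a trend on level was subtracted 43 and 11, 58.9% against 33.3%. In Cav1-shRNA against AP control the counts were 61 and 12 after centring, 83.6% higher against 90.1% of all genes, and 58 and 15 after quantile normalization, 79.5% against 82.2%. With the trend subtracted they were 52 and 21, 71.2% against 61.8%. For Cav1-shRNA the share of higher members was thus above that of all genes with the trend subtracted. It was below that share under centring and quantile normalization. As deposited 59.1% of all genes and 35.6% of members were equal, and a small shift moves such ties together. Relative to the median of all genes, 39.7% of members were above after centring, against 22.4% of all genes. After quantile normalization 57.5% were above, against 50.0%, and with the trend subtracted 60.3%, against 49.9%. Below that median lay 24.7% of members after centring, against 18.5%, and smaller shares than of all genes otherwise. Counted as at least 0.1 from the median of all genes, 16 members were above and 3 below in cavtratin under each of those scalings. Of all genes 7.68% to 7.79% were above and 6.65% to 6.80% below. Centring shifts all values of an array alike, so it could not change a count taken from that median. In Cav1-shRNA 16 or 17 were above and 7 below, where 8.53% to 8.72% of all genes were above and 6.31% to 6.76% below.

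Host genes were set beside their snoRNAs in the 55 members with exactly 1 host that was measured itself. The snoRNA had the wider spread over the 3 arrays in 30 of them and the host in 19, and in 6 both were exactly equal in all 3 arrays. The median spread was 0.072 for these snoRNAs and 0.0081 for their 41 hosts. In 13 members the snoRNA differed between arrays while the host was equal, and in 10 the host differed while the snoRNA was equal. A spread of at least 0.1 was seen in 21.1% of all genes, in 23 of the 55 snoRNAs and in 5 of the 41 hosts, namely Snhg12, Rpl32, Rpl39, Rps12 and Rpl3. Host and snoRNA come from separate probe sets with unknown noise, so these spreads are descriptions.

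**Figure D4:**
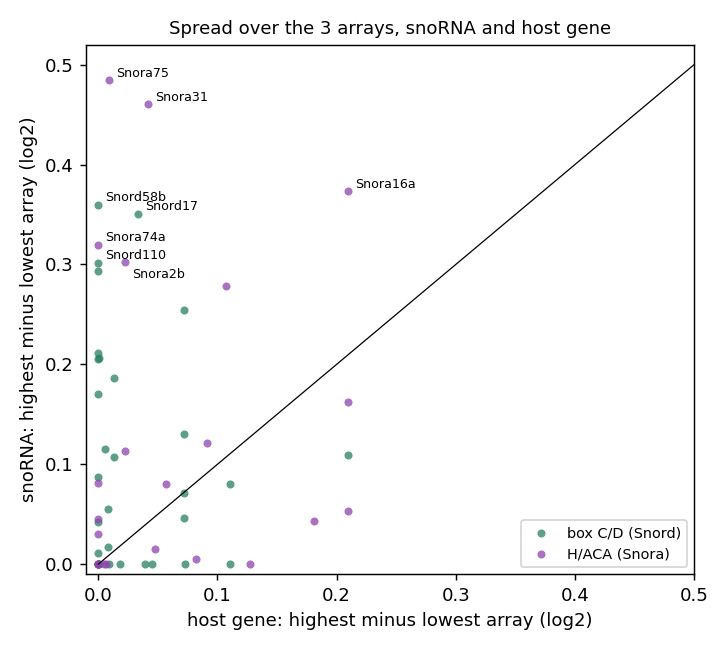
Highest minus lowest array (log2) of each snoRNA (vertical axis) against that of its host gene (horizontal axis), 55 members with 1 measured host, with a line of equality. Snora75, Snora31 and Snora16a lie above the line, and of these Snora16a has the host with the widest spread, Snhg12 at 0.21, whose mean is below the floor.

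Several hosts held more than 1 member. Snhg12 held 4 of them and read 6.31 in Cav1-shRNA against 6.52 in the other 2, with a mean below the floor. Its snoRNA Snora44 was at 9.30 in AP control and 9.46 in both others. Snord99 was at 8.70, 8.81 and 8.75. Snora61 was at 7.25, 7.30 and 7.25, and the values of Snora16a are given above. In 2410006H16Rik, at 9.32, 9.39 and 9.32, Snord49b was highest in Cav1-shRNA, Snord49a was at 6.80, 6.84 and 6.80, and Snord65 was lowest there, at 7.33, 7.20 and 7.31.

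Nop58 held Snord11, at 7.90, 7.90 and 7.91, and Snord70, below the floor at 5.08, 4.85 and 5.15, while the host was at 8.36 in all 3. Rps3a1 held Snord73b and Snord73a, the latter below the floor at 4.50, 4.43 and 4.53, with the host at 8.71, 8.70 and 8.70. Kansl2, at 8.30, 8.27 and 8.27, held Snora34, at 8.67 in AP control and 8.78 in both others, and Snora2b. Where letters mark related copies, as in Snord73a and Snord73b, cross-hybridisation between them was not tested.

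Of the 20 members with exactly the same value in all 3 arrays, 12 were at or above the floor. Beside those already given they were Snora7a at 9.13, in Rpl32, Snora15 at 8.96, in the chaperonin gene Cct6a, Snord55 at 8.43 and Snord16a at 8.26, in Rpl4. Snord15a was at 7.63, Snora68 at 7.09, Snord61 at 7.06 and Snord83b at 6.86. The 8 below the floor were Snora20, Snora35, Snora41, Snord1b, Snord52, Snord90, Snord92 and Snord123. Snora35 lies in Htr2c, the gene of a serotonin receptor.

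Genes for proteins of the snoRNA particles were read beside all genes, of which 21.1% spread over at least 0.1. Nop56, Nop58 and Snu13, core proteins of the box C/D particle, were at 9.08, 8.36 and 10.25 in all 3 arrays. Fbl, another core protein of that particle, was not among the genes measured here. Dkc1, the pseudouridine synthase, and its partners Gar1, Nhp2 and Nop10 differed by at most 0.0012 between arrays. Of 11 assembly factors and 13 processing and export factors none was 0.1 or more apart, and the widest spread was 0.068, in Tnpo1. Of 25 genes of the small-subunit processome 3 spread over at least 0.1, Utp18 at 0.21, Mphosph10 at 0.17 and Dcaf13 at 0.11, and of 17 genes of ribosomal RNA transcription 3 did, Taf1d at 0.17, Taf1a at 0.15 and Polr1c at 0.11.

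Noncoding host genes were listed whether or not their snoRNA was a member. Of 20 measured, 1 was higher, 14 equal and 5 lower in cavtratin against AP control, where 61.6% of all genes were equal. In Cav1-shRNA against AP control 2 were higher, 12 equal and 6 lower, where 59.1% of all genes were equal. Snhg11 was at 10.16, 9.81 and 10.08. Rian, a host of imprinted box C/D copies that were not members, was at 9.04, 8.84 and 9.04. Ipw, from the other imprinted region, was at 9.16, 8.81 and 8.97, and Snhg14 from the same region was at 9.51 in AP control and 9.43 in both others.

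Other small RNAs were counted beside the snoRNAs. Of 5 small Cajal body RNAs, relatives that guide modification of spliceosomal RNA, Scarna6 was at 11.24, 11.58 and 11.40. Scarna17 was at 11.42, 11.56 and 11.48, and the other 3 differed by at most 0.014. Of 483 microRNA hairpin genes 84 were higher and 145 lower in cavtratin against AP control, where 17.5% and 20.9% of all genes were. In Cav1-shRNA 83 were higher and 163 lower, where 22.4% and 18.5% of all genes were. The difference between these groups and the snoRNA genes was not tested.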

How the data were processed

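The authors deposited 1 table of log2 expression per probe set for 3 arrays, 1 per group; that the scale is log2 was judged from its span. Log base, summarisation and normalization: not given in the sources used here. The number of arrays limits the precision. The table held 41345 probe sets, of which 23521 had 1 symbol in a platform annotation that can be old, 1814 several and 16010 none. The probe set with the highest mean stood for a gene. All 73 snoRNA genes matched RefSeq GRCm38.p6 by Entrez identifier. The floor was the median of the means over probe sets with 1 symbol. Values within 1e-09 were called equal. At least 2-fold apart meant a difference of at least 1 with the floor reached in the higher array.

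No test was run, since each group had 1 array. Named were, per comparison and class, the 4 members at or above the floor with the largest difference either way, and the 5 members of each class with the highest mean and with the widest spread; others named in groups were chosen after their values were seen. The members and lists were chosen with earlier results of these data known. Alternatives were other scalings, the mean of a gene's probe sets, other floors and folds, and list means. Python 3.11.15 with pandas 2.3.3 and statsmodels 0.14.6 was used, and the counting was tested on simulated data.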

Additional observations from a re-analysis of the deposited data

How the results depend on the processing

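Counts of 2-fold differences and class medians were recomputed under centring, quantile normalization, a subtracted lowess trend, the mean of a gene's probe sets, other floors, 1.5-fold and 3-fold thresholds, the mean in place of the median, and members at or above the floor alone. In all 87 such recomputations the count of snoRNA genes stayed at 0 or the median moved by less than 0.1. The widest deposited difference, 0.48, is below even the 1.5-fold threshold of 0.585, so other thresholds and floors could only give 0. The limit of 0.1 is wide beside these medians, so this agreement says little about them. Leaving out Snord113 to Snord116 genes removed none, as no member bears those names. No paired analysis was possible because each group had 1 array. The H/ACA median in cavtratin against AP control ranged from 0.0026 as deposited to 0.024 with the floor reached, and its mean was 0.091. The counts of higher and lower members moved with the scaling together with those of all genes, as the report gives. Differences under 0.5 between 2 arrays have no measured error here.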
